A study of Homo sapiens with 5 samples.

Results

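The G2/M and mitosis genes are a set of 51 human genes whose products take cells from G2 through division: cyclins and CDK1, the mitotic kinases, the spindle checkpoint, the kinetochore, spindle proteins, motors, and proteins that shape mitotic chromosomes. They were chosen by gene symbol, and all 51 symbols were found among the 51055 genes of the deposited count table. All 51 also passed the filter on low counts in every comparison. Gene expression was measured in 5 libraries of HL60, an established cell line from a human promyelocytic leukaemia, whose cells resemble immature granulocytes. The antisense cells, called ZIP (n = 2), carried a lentivector whose hairpin makes RNA antisense to miR-378a-3p. The control cells, called SCR (n = 2), carried a control lentivector that the labels describe both as scramble and as empty. The third group was untransduced HL60 (n = 1). Per the labels, ZIP and SCR cells were spin-transduced with polybrene at 8 µg/mL, at a multiplicity of infection (MOI) of 20. Both vectors carry green fluorescent protein, and transduced cells were selected with puromycin at 2 µg/mL from day 3 through day 8. The untransduced cells are not described as having had polybrene, spinning or puromycin, so transduction and selection cannot be told apart in comparisons with them. All libraries come from 1 cell line, and nothing in the labels says whether replicates were separate cultures, so the spread behind the p-values may be technical only.

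Genes of this kind are transcribed in a wave. Their promoters are held silent in G0 and early G1 by the DREAM complex and switched on in G2 by the MuvB core with MYBL2 and FOXM1, and many of their proteins are destroyed at the end of mitosis by the anaphase-promoting complex (APC/C). Their transcripts are therefore read in many studies as a sign of how much of a culture is cycling. In a bulk library, fewer cells in G2 and M and less of each transcript per cell cannot be told apart.

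Library totals ranged from 24406580 to 30925067 counts, of which 96.6% to 97.1% fell in protein-coding genes, although the labels name a small RNA library kit. The targeted microRNA cannot be checked in this table: its locus MIR378A had 0 and 2 counts in the ZIP libraries, 0 in each SCR library and 0 in untransduced cells. Libraries of a group lay close together, with a mean chi-square per gene of 1.82 between the ZIP libraries and 2.54 between the SCR libraries, against 89.2 to 137 between libraries of different groups. MPO, a marker of promyelocytes, the type HL60 is drawn from, was abundant everywhere. It had 17100 and 16600 CPM in ZIP, 9970 and 10000 CPM in SCR and 19000 CPM in untransduced cells. Other such markers were lower, with CTSG at 346 and 342 CPM in ZIP, 76.5 and 76.4 CPM in SCR and 205 CPM in untransduced cells. The erythroid globin genes HBA1 and HBB were at 0 in every library.

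The sequences below introduce the genes at both ends of the ZIP and SCR comparison and the strongest SCR increase, because CCAAT boxes, which bind NF-Y, and the cell cycle genes homology region (CHR), which binds MuvB complexes, are the shared promoter elements of this gene class. Each line gives the 150 bases before the RefSeq start of the gene, 5′ to 3′ on the strand of the gene, from GRCh38.p14. Capitals mark the CCAAT box, written ATTGG where it lies on the other strand, and the CHR. For the CHR the letters TTTGAA were searched, with TTCAAA for the other strand, and the variant TTCGAA, which reads the same on both. In HMMR and PTTG1 a CCAAT and an ATTGG share bases. In MKI67 a TTTGAA runs into an ATTGG. The windows are chr5:138338356-138338505 (CDC25C, minus strand), chr5:163460482-163460631 (HMMR, plus strand), chr5:160421705-160421854 (PTTG1, plus strand), chr6:33391673-33391822 (KIFC1, plus strand), chr4:120066849-120066998 (MAD2L1, minus strand) and chr10:128126424-128126573 (MKI67, minus strand).
CDC25C: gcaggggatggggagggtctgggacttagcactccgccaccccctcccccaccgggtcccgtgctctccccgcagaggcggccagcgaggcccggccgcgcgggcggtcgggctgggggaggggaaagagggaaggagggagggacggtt
HMMR: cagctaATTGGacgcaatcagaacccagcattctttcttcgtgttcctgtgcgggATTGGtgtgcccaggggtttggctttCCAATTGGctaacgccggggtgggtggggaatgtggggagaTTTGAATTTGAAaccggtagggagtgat
PTTG1: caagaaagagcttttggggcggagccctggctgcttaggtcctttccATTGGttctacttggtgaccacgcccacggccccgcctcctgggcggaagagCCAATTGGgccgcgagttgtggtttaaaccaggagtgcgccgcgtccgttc
KIFC1: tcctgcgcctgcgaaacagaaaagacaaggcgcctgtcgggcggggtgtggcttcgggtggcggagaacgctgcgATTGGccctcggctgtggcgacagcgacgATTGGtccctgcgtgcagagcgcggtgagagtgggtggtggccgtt
MAD2L1: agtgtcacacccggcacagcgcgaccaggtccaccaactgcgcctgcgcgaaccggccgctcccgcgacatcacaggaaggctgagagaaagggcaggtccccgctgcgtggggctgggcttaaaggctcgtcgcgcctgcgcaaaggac
MKI67: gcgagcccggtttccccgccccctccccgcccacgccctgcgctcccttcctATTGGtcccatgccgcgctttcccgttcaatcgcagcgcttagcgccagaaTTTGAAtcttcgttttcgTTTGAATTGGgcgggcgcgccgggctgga
HMMR held 4 CCAAT boxes and 2 CHR elements in these 150 bases, MKI67 held 2 of each, PTTG1 held 3 CCAAT boxes and KIFC1 held 2. CDC25C and MAD2L1 had no match here, which says only that these letters are absent from these windows.

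Levels are given as CPM on a TMM-scaled library size. Fold changes are log2 values ± SE from the edgeR quasi-likelihood test, always of the group named first over the group it is set against, with p-values adjusted by Benjamini-Hochberg over all genes tested. A gene is said to rise or fall where the adjusted p was under 0.05. The summed level of the 51 genes was 7270 and 7380 CPM in ZIP, 8340 and 8350 CPM in SCR and 5560 CPM in untransduced cells. This was 0.719% and 0.731% of all counts in ZIP, 0.862% and 0.859% in SCR and 0.531% in untransduced cells. The groups did not overlap, with ZIP between SCR and untransduced cells.

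In ZIP against SCR, 38 of the 51 genes fell, 4 rose and 9 passed in neither direction. By DESeq2, 32 fell and 4 rose. Over all 14643 genes tested, 65.4% were called, 33.2% lower and 32.2% higher, so the share of the mitosis genes that fell (74.5%) was above this background and the share that rose (7.84%) was below it. The falls were mostly small. The median log2 fold change was -0.21, against 0.0 over all genes, with a range of -1.27 to 0.32. With a change of at least 1.5-fold also asked for, 6 genes fell and 0 rose by edgeR and by DESeq2, beside 16.6% and 8.94% of all genes in edgeR. An unadjusted p adds no rise, since the largest was 0.32 on the log2 scale. The 6 were CDC25C, HMMR, PTTG1, KIFC1, KIF2C and NUF2. KIF2C and NUF2, both at -0.59, lay at the cut, and NDC80, at -0.58, just missed it. The count depended on the setting, with 8 genes under library totals and 4 with an offset for exon length. At 6 of 51 the share past 1.5-fold was no higher than over all genes. Tested against a fold change of 1.2 with glmTreat in edgeR, 17 of the 51 fell and 1 rose, so the calls of many genes named below rest on changes smaller than that.

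In SCR against untransduced cells, 42 of the 51 genes rose, 5 fell (3 without SCR 2) and 4 passed in neither direction, where 64.9% of all 15832 genes tested were called, 32.7% higher and 32.2% lower. The median log2 fold change was 0.55, against 0.02 over all genes, and the range was -0.51 to 1.52. At least 1.5-fold rises were called for 24 genes by edgeR (25 by DESeq2) and falls of that size for 0 by either, beside 20.2% and 13.3% of all genes in edgeR. In ZIP against untransduced cells, 36 genes rose, 8 fell and 7 passed in neither direction, where 58.2% of all genes were called, 28.5% higher and 29.7% lower. Here the median was 0.30 against 0.0 over all genes, and 9 genes rose and 0 fell at least 1.5-fold by edgeR and by DESeq2, beside 13.8% and 11.4% of all genes in edgeR. These 3 comparisons share libraries: SCR and untransduced cells each stand in a pair of them, so their values are given side by side and not as support for each other. The untransduced group is a lone library, and its spread was taken from the other groups.

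**Figure D1:**
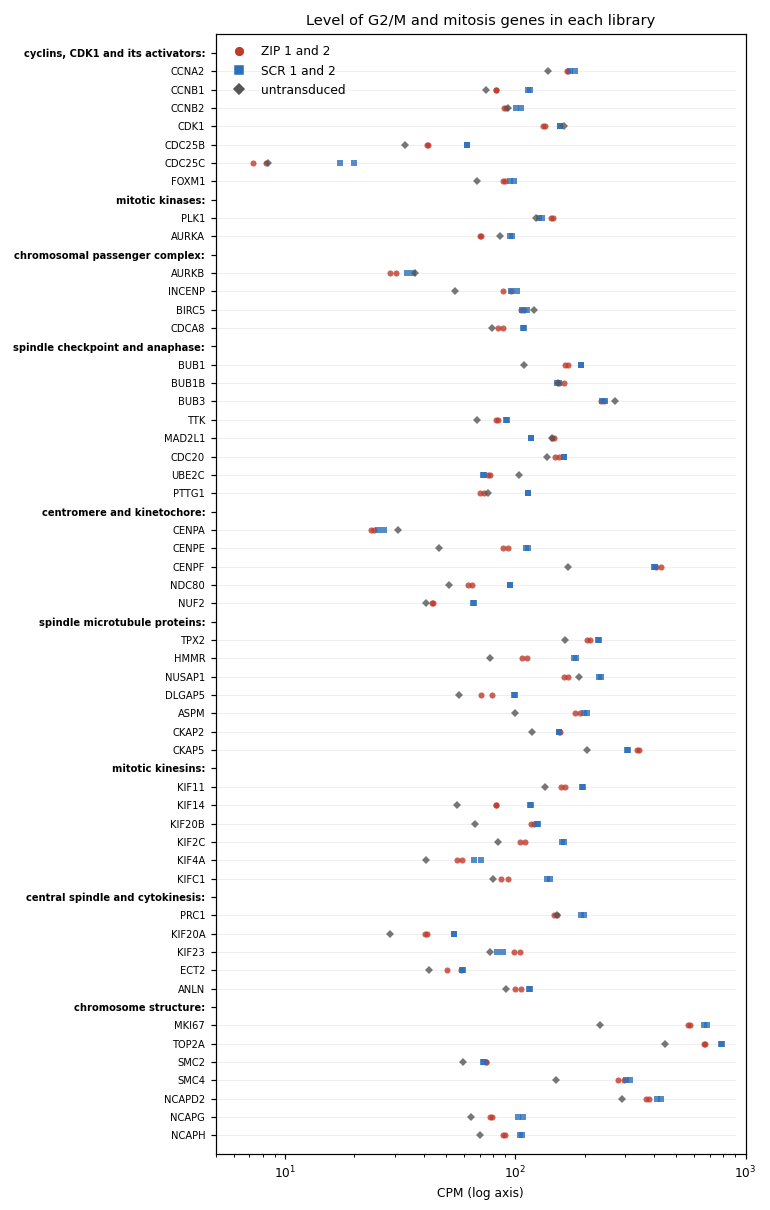
CPM of the 51 genes in each library on a log axis, by role, with ZIP as red circles, SCR as blue squares and untransduced cells as grey diamonds. Replicates of a group lie close together for nearly all genes. CDC25C, HMMR and PTTG1 show the SCR libraries alone at the high end, MAD2L1 shows them alone at the low end, and MKI67 and CENPF show the untransduced library far below the other 4.

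**Figure D2:**
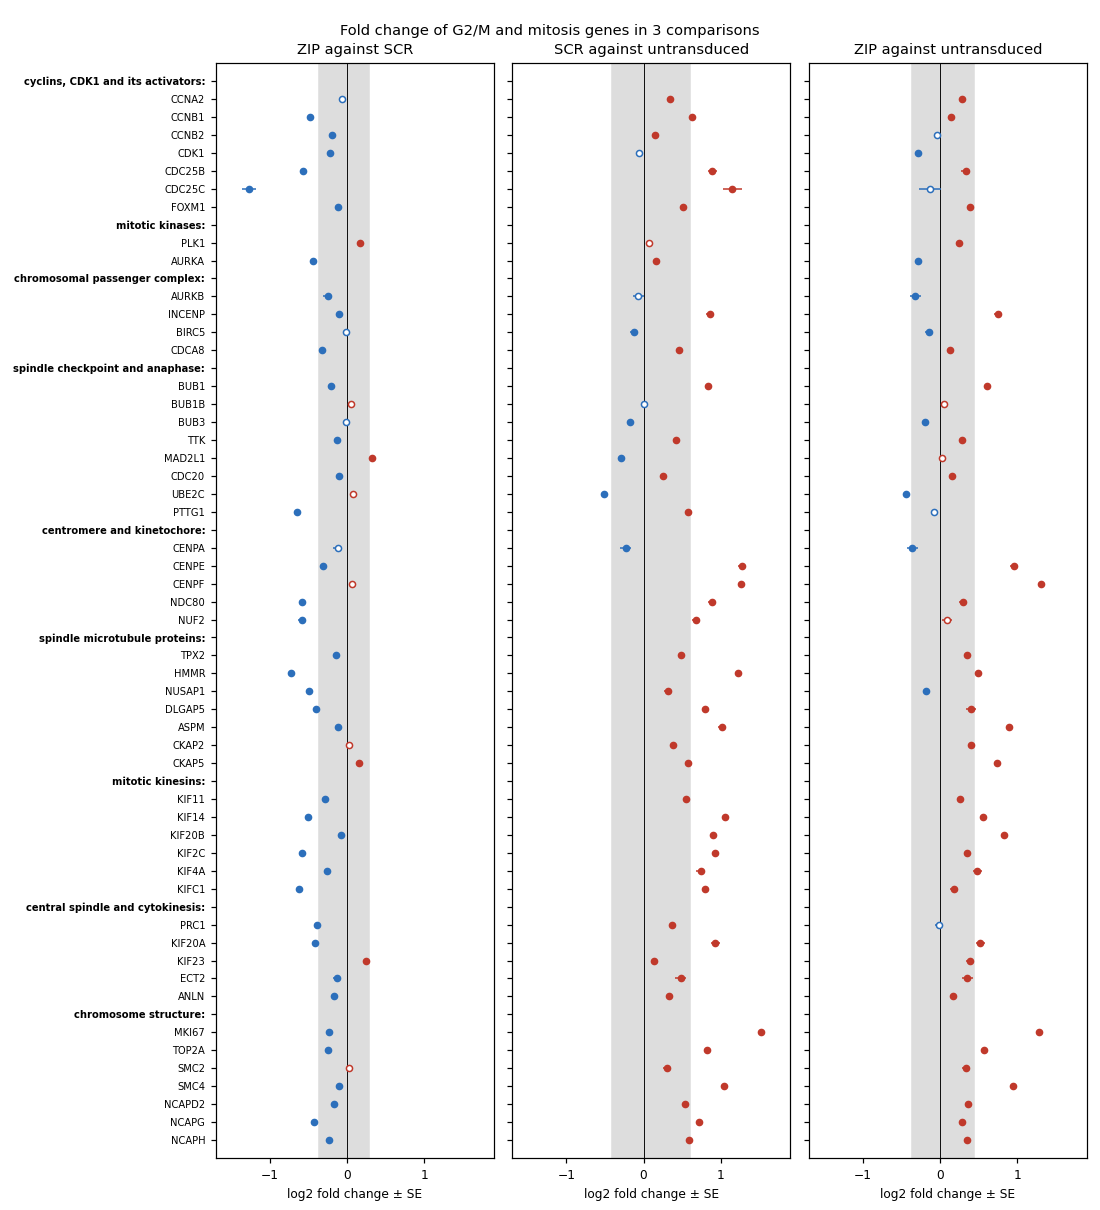
Log2 fold change ± SE of each gene in ZIP against SCR, SCR against untransduced and ZIP against untransduced cells, red above 0 and blue below, filled where the adjusted p was under 0.05. The grey band spans the middle quartiles of all genes tested: -0.37 to 0.29 in ZIP against SCR, -0.41 to 0.6 in SCR against untransduced and -0.36 to 0.44 in ZIP against untransduced cells.

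Levels can be compared between genes only per length, here as TPM over the summed exon length in GENCODE 29. TOP2A was the highest at a mean of 363 TPM over the 5 libraries, followed by CDC20 at 259 TPM, NUSAP1 at 238 TPM and UBE2C at 213 TPM. The order differed between groups: UBE2C had 214 and 209 TPM in SCR, below CCNA2, TPX2 and NCAPD2, and 236 TPM in untransduced cells, above TOP2A at 202 TPM. The lowest were CDC25C at 12.9 TPM, CENPE at 33.6 TPM and ECT2 at 33.8 TPM.

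Among cyclins, CDK1 and its activators, 6 of 7 genes fell in ZIP against SCR and none rose, and 6 of 7 rose in SCR against untransduced cells. CDC25C (chr5:138285265-138338355, minus strand, GRCh38) encodes the phosphatase that removes inhibitory phosphates from CDK1 at entry into mitosis. It had 7.25 and 8.23 CPM in ZIP, 17.3 and 20.0 CPM in SCR and 8.39 CPM in untransduced cells. The SCR libraries stood alone at the high end, and the untransduced value lay just above both ZIP libraries. Its log2 fold change in ZIP against SCR was -1.27 ± 0.09 (adjusted p = 2.5e-10), the largest fall of the 51 genes, and in SCR against untransduced cells it was 1.15 ± 0.12 (adjusted p = 1.3e-08). Against untransduced cells ZIP gave a log2 fold change of -0.13 ± 0.14 (adjusted p = 0.46). Its counts, 222 and 199 in ZIP, 438 and 513 in SCR and 201 in untransduced cells, were few, and the gene overlaps FAM53C on the opposite strand, which had 1992 and 1554 counts in ZIP, 1714 and 1672 in SCR and 1077 in untransduced cells. No source used here says whether counting used strand, so some of these counts could belong to either gene. ANLN, CCNA2, CENPA, FOXM1, KIF20A, KIF4A, NCAPD2, NCAPG, NUF2, PLK1 and SMC4 also overlap another protein-coding gene. Overlap was taken between whole gene spans, not exons, and the uncertainty differs with the counts of the neighbour. ERN2, which overlaps PLK1, had at most 2 counts in a library, against at least 2943 for PLK1.

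CDC25B, the sister phosphatase that acts on CDK1 at the centrosome, had 41.9 and 41.3 CPM in ZIP, 61.9 and 61.4 CPM in SCR and 33.2 CPM in untransduced cells. It fell by 0.57 ± 0.04 log2 units in ZIP against SCR (adjusted p = 2.2e-10) and rose by 0.89 ± 0.06 in SCR against untransduced cells (adjusted p = 2.8e-12). ZIP stayed above untransduced cells, by 0.33 ± 0.06 log2 units. CCNB1 (chr5:69167010-69178245, plus strand) encodes cyclin B1, the partner that activates CDK1. Its levels were 82.1 and 82.2 CPM in ZIP, 114 and 116 CPM in SCR and 74.4 CPM in untransduced cells, again highest in SCR, with a log2 fold change of -0.48 ± 0.03 in ZIP against SCR (adjusted p = 1.8e-11) and 0.63 ± 0.04 in SCR against untransduced cells (adjusted p = 2.6e-12).

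CDK1 itself (chr10:60778331-60794852, plus strand), the kinase that drives mitotic entry, did not follow this order. It had 132 and 135 CPM in ZIP, 157 and 156 CPM in SCR and 163 CPM in untransduced cells. ZIP libraries were the lowest and SCR was close to untransduced cells. Its log2 fold change was -0.22 ± 0.03 in ZIP against SCR (adjusted p = 6.5e-07), -0.06 ± 0.04 in SCR against untransduced cells (adjusted p = 0.15) and -0.28 ± 0.04 in ZIP against untransduced cells (adjusted p = 4.1e-07). FOXM1, the transcription factor that drives late cell cycle genes, had 88.4 and 89.8 CPM in ZIP, 95.2 and 98.6 CPM in SCR and 68.2 CPM in untransduced cells. It fell by 0.12 ± 0.03 log2 units in ZIP against SCR (adjusted p = 0.0023), a call that was lost without SCR 2 and under DESeq2, and rose by 0.51 ± 0.04 in SCR against untransduced cells. Cyclin B2 (CCNB2) fell by 0.20 ± 0.03 in ZIP against SCR, while cyclin A2 (CCNA2), which pairs with CDK2 and CDK1 from S phase on, had a log2 fold change of -0.06 ± 0.03 (adjusted p = 0.077).

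The mitotic kinases PLK1 and AURKA moved in opposite directions in ZIP against SCR. AURKA (Aurora A, at the spindle poles) had 70.8 and 70.2 CPM in ZIP, 94.6 and 96.9 CPM in SCR and 85.8 CPM in untransduced cells. It fell by 0.44 ± 0.03 in ZIP against SCR (adjusted p = 2.6e-10) and lay below untransduced cells too, by a log2 fold change of -0.28 ± 0.04 (adjusted p = 3.5e-06). PLK1 (polo-like kinase 1, which promotes mitotic entry and spindle assembly) had 146 and 143 CPM in ZIP, 127 and 130 CPM in SCR and 123 CPM in untransduced cells. It rose by 0.17 ± 0.03 log2 units in ZIP against SCR (adjusted p = 3.2e-05) and by 0.24 ± 0.04 in ZIP against untransduced cells (adjusted p = 9.8e-06), with both ZIP libraries above the other 3.

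The chromosomal passenger complex, which corrects faulty chromosome attachments and later moves to the midzone, had 3 of its 4 genes lower in ZIP than in SCR and none higher. CDCA8 (borealin) had 88.3 and 84.2 CPM in ZIP, 109 and 108 CPM in SCR and 79.1 CPM in untransduced cells, a fall of 0.33 ± 0.03 log2 units in ZIP against SCR (adjusted p = 1.7e-08). AURKB, its kinase Aurora B, had 30.2 and 28.6 CPM in ZIP, 33.9 and 36.1 CPM in SCR and 36.8 CPM in untransduced cells, and fell by 0.25 ± 0.06 log2 units in ZIP against SCR (adjusted p = 0.0006). Against untransduced cells CDCA8 rose by 0.46 ± 0.04 log2 units in SCR and by 0.13 ± 0.04 in ZIP, the latter lost without ZIP 1 and under DESeq2. AURKB fell by 0.32 ± 0.07 in ZIP against untransduced cells, a call lost with an offset for exon length. INCENP, the scaffold, had the largest rises of the 4 genes against untransduced cells. It had 88.7 and 95.3 CPM in ZIP, 95.5 and 102 CPM in SCR and 54.5 CPM in untransduced cells. It rose by 0.86 ± 0.05 log2 units in SCR (adjusted p = 1.3e-12) and by 0.75 ± 0.05 in ZIP (adjusted p = 2.8e-11) against untransduced cells. Its fall of 0.11 ± 0.04 log2 units in ZIP against SCR (adjusted p = 0.018) was lost without ZIP 1, without SCR 2 and under DESeq2. BIRC5 (survivin) had 109 and 106 CPM in ZIP, 112 and 107 CPM in SCR, overlapping each other, and 120 CPM in untransduced cells. Its log2 fold change was -0.02 ± 0.03 in ZIP against SCR (adjusted p = 0.56), and its fall of 0.13 ± 0.04 in SCR against untransduced cells (adjusted p = 0.0053) was lost without SCR 2, with library totals, with an offset for exon length and under DESeq2.

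The spindle checkpoint and anaphase genes were split. In ZIP against SCR, 4 of 8 fell, 1 rose and 3 passed in neither direction. PTTG1 (chr5:160421822-160428744, plus strand) encodes securin, which holds separase inactive until the APC/C destroys it at anaphase. It had 73.1 and 70.4 CPM in ZIP, 113 and 113 CPM in SCR and 75.7 CPM in untransduced cells. SCR stood alone at the high end. The fall in ZIP against SCR was 0.65 ± 0.03 log2 units (adjusted p = 3.6e-13), the rise in SCR against untransduced cells was 0.58 ± 0.04 (adjusted p = 1.6e-11), and ZIP against untransduced cells gave -0.08 ± 0.04 (adjusted p = 0.14). Its near copies PTTG2 and PTTG3P had at most 3 counts in a library.

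MAD2L1 (chr4:120055608-120067074, minus strand) showed the opposite order. It encodes MAD2, the checkpoint protein that blocks CDC20 while kinetochores are unattached. Its levels were 145 and 147 CPM in ZIP, 117 and 117 CPM in SCR and 144 CPM in untransduced cells. SCR alone was low, and ZIP lay within a few CPM of untransduced cells. It rose by 0.32 ± 0.03 log2 units in ZIP against SCR (adjusted p = 3.9e-09), the largest rise of the 51 genes, and fell by 0.29 ± 0.04 in SCR against untransduced cells (adjusted p = 2.2e-07).

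The checkpoint kinase gene BUB1 had 164 and 169 CPM in ZIP, 193 and 193 CPM in SCR and 109 CPM in untransduced cells. It fell by 0.21 ± 0.03 log2 units in ZIP against SCR (adjusted p = 1.3e-06) and rose by 0.83 ± 0.04 in SCR against untransduced cells (adjusted p = 8e-15). Its partner BUB3 had 236 and 242 CPM in ZIP, 246 and 238 CPM in SCR and 272 CPM in untransduced cells. The vector groups overlapped and both lay below untransduced cells, with log2 fold changes of -0.02 ± 0.03 in ZIP against SCR (adjusted p = 0.62) and -0.17 ± 0.03 in SCR against untransduced cells (adjusted p = 0.00017, lost with library totals). UBE2C (chr20:45812576-45816957, plus strand), the ubiquitin-conjugating enzyme of the APC/C, was highest in untransduced cells. It had 77.3 and 75.9 CPM in ZIP, 73.4 and 72.4 CPM in SCR and 104 CPM in untransduced cells, a fall of 0.51 ± 0.04 log2 units in SCR (adjusted p = 9.5e-11) and of 0.44 ± 0.04 in ZIP (adjusted p = 1.8e-09) against untransduced cells. In ZIP against SCR its log2 fold change was 0.07 ± 0.03 (adjusted p = 0.067). Of the others, CDC20, the APC/C activator, and TTK, the kinase that starts checkpoint signalling, fell by 0.10 ± 0.03 and 0.13 ± 0.03 in ZIP against SCR, and BUB1B had log2 fold changes between 0.0 and 0.05 with no call in any comparison.

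At the centromere and kinetochore, 3 of 5 genes fell in ZIP against SCR, and 4 of 5 rose in SCR against untransduced cells, all 4 by at least 1.5-fold. NDC80 and NUF2 bind each other in the NDC80 complex, which grips microtubule ends. NDC80 had 62.1 and 64.7 CPM in ZIP, 94.4 and 95.1 CPM in SCR and 51.6 CPM in untransduced cells. NUF2 had 43.5 and 43.8 CPM in ZIP, 65.5 and 66.3 CPM in SCR and 41.0 CPM in untransduced cells. Their levels moved by like amounts: NDC80 fell by 0.58 ± 0.03 log2 units (adjusted p = 6.4e-12) and NUF2 by 0.59 ± 0.04 (adjusted p = 6.3e-11) in ZIP against SCR. In SCR against untransduced cells they rose by 0.88 ± 0.05 log2 units and 0.68 ± 0.05.

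CENPE, a kinesin that carries chromosomes to the spindle equator, had 88.5 and 93.1 CPM in ZIP, 111 and 113 CPM in SCR and 46.5 CPM in untransduced cells. It fell by 0.31 ± 0.03 log2 units in ZIP against SCR (adjusted p = 4.9e-08) and rose by 1.27 ± 0.05 in SCR against untransduced cells (adjusted p = 1.6e-16). CENPF (chr1:214603195-214664588, plus strand), a large coiled-coil protein of the outer kinetochore, had 409 and 429 CPM in ZIP, 401 and 405 CPM in SCR and 169 CPM in untransduced cells. Here the vector groups lay close together and far above untransduced cells. The log2 fold change was 0.06 ± 0.03 in ZIP against SCR (adjusted p = 0.07, below 0 with library totals), 1.26 ± 0.04 in SCR against untransduced cells (adjusted p = 1.5e-18) and 1.31 ± 0.04 in ZIP against untransduced cells (adjusted p = 1.6e-18), the largest of the 51 genes in that comparison. CENPA, the histone H3 variant that marks centromeres, ran the other way. It had 23.7 and 24.4 CPM in ZIP, 27.0 and 25.3 CPM in SCR and 30.8 CPM in untransduced cells, and fell by 0.23 ± 0.07 log2 units in SCR (adjusted p = 0.0071, lost without SCR 2, with library totals, with an offset for exon length and under DESeq2) and by 0.36 ± 0.07 in ZIP (adjusted p = 0.0002) against untransduced cells.

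Spindle microtubule proteins rose in 7 of 7 cases in SCR against untransduced cells, and 5 of 7 fell and 1 rose in ZIP against SCR. HMMR (chr5:163460203-163491945, plus strand), a microtubule-binding protein of spindle poles and a hyaluronan receptor, had 112 and 107 CPM in ZIP, 183 and 180 CPM in SCR and 77.8 CPM in untransduced cells. SCR was highest and ZIP lay between the other groups. It fell by 0.73 ± 0.03 log2 units in ZIP against SCR (adjusted p = 2.8e-14) and rose by 1.22 ± 0.04 in SCR against untransduced cells (adjusted p = 3.1e-17), and ZIP stayed above untransduced cells by 0.49 ± 0.04 (adjusted p = 1e-09). This is the gene whose promoter above holds the most motif matches of the 6 printed.

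NUSAP1, which bundles microtubules near chromosomes, had 163 and 169 CPM in ZIP, 235 and 232 CPM in SCR and 189 CPM in untransduced cells, with a fall of 0.49 ± 0.03 in ZIP against SCR (adjusted p = 5.9e-12) and a value below untransduced cells by a log2 fold change of -0.18 ± 0.04 (adjusted p = 0.00014, lost with an offset for exon length). DLGAP5, a spindle assembly factor, had 71.0 and 79.5 CPM in ZIP, 98.8 and 99.6 CPM in SCR and 56.9 CPM in untransduced cells, and fell by 0.40 ± 0.04 log2 units in ZIP against SCR (adjusted p = 2e-08). ASPM, a spindle pole protein, was raised in both vector groups. It had 181 and 190 CPM in ZIP, 199 and 204 CPM in SCR and 100 CPM in untransduced cells, a rise of 1.01 ± 0.04 log2 units in SCR (adjusted p = 9.5e-16) and of 0.89 ± 0.04 in ZIP (adjusted p = 1.8e-14) against untransduced cells. Its fall of 0.12 ± 0.03 log2 units in ZIP against SCR (adjusted p = 0.0018) was lost without ZIP 1. CKAP5, the microtubule polymerase, was the exception of the group. It had 338 and 346 CPM in ZIP, 308 and 306 CPM in SCR and 204 CPM in untransduced cells, and rose in all 3 comparisons, by 0.16 ± 0.03 log2 units in ZIP against SCR (adjusted p = 2.3e-05), and by 0.58 ± 0.03 in SCR and 0.74 ± 0.03 in ZIP when each was set against untransduced cells. TPX2, which activates Aurora A, fell by 0.14 ± 0.03 in ZIP against SCR, and CKAP2 had a log2 fold change of 0.02 ± 0.03 there (adjusted p = 0.55).

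Of the mitotic kinesins not placed under another role, 6 of 6 fell in ZIP against SCR and 6 of 6 rose in both vector groups against untransduced cells. The kinesins CENPE, KIF20A and KIF23 are given with the kinetochore and central spindle genes, and KIF23 rose in ZIP against SCR. The median log2 fold changes of the 6 were -0.39, 0.85 and 0.41. KIFC1, a minus-end motor that focuses spindle poles, had 93.2 and 86.4 CPM in ZIP, 141 and 137 CPM in SCR and 79.7 CPM in untransduced cells. It fell by 0.62 ± 0.03 log2 units in ZIP against SCR (adjusted p = 2.1e-12). KIF2C, which takes microtubules apart at centromeres, had 110 and 105 CPM in ZIP, 163 and 160 CPM in SCR and 84.5 CPM in untransduced cells, and fell by 0.59 ± 0.03 log2 units (adjusted p = 7.9e-13). KIF14, which acts in cytokinesis, had 82.3 and 82.8 CPM in ZIP, 116 and 117 CPM in SCR and 56.0 CPM in untransduced cells. It fell by 0.50 ± 0.03 log2 units in ZIP against SCR (adjusted p = 8.5e-12) and rose by 1.06 ± 0.04 in SCR against untransduced cells (adjusted p = 4.9e-16), the largest rise of these 6. In all 3 genes SCR was highest, then ZIP, then untransduced cells, with no overlap. KIF20B had 117 and 121 CPM in ZIP, 124 and 126 CPM in SCR and 66.7 CPM in untransduced cells, and its fall of 0.08 ± 0.03 log2 units in ZIP against SCR (adjusted p = 0.027) was lost under 6 settings, 3 of them with a library left out. KIF11, which pushes spindle poles apart, and the chromokinesin KIF4A fell by 0.28 ± 0.03 log2 units and 0.26 ± 0.04 in ZIP against SCR.

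Of the central spindle and cytokinesis genes, 4 of 5 fell and 1 rose in ZIP against SCR, and 5 of 5 rose in SCR against untransduced cells. KIF20A, a motor of the central spindle, had 40.6 and 41.2 CPM in ZIP, 54.3 and 54.4 CPM in SCR and 28.6 CPM in untransduced cells, and fell by 0.41 ± 0.04 log2 units in ZIP against SCR (adjusted p = 5.6e-08). It overlaps CDC23 and BRD8 on the opposite strand, which had at least 932 and 1042 counts in every library, so its own counts are uncertain. PRC1, which crosslinks midzone microtubules, had 147 and 152 CPM in ZIP, 193 and 199 CPM in SCR and 152 CPM in untransduced cells. It fell by 0.39 ± 0.03 in ZIP against SCR (adjusted p = 3e-10), and its log2 fold change in ZIP against untransduced cells was -0.02 ± 0.04 (adjusted p = 0.68). KIF23, the motor of centralspindlin, rose. It had 99.1 and 105 CPM in ZIP, 88.8 and 83.1 CPM in SCR and 78.0 CPM in untransduced cells, a rise of 0.25 ± 0.04 log2 units in ZIP against SCR (adjusted p = 5.2e-06) and of 0.39 ± 0.05 in ZIP against untransduced cells (adjusted p = 2e-07). Its smaller rise in SCR against untransduced cells, 0.14 ± 0.05 (adjusted p = 0.013), was lost under DESeq2 (0.15 on the log2 scale, adjusted p = 0.15), with the exon-length offset (0.08, adjusted p = 0.13), without SCR 1 (0.09, adjusted p = 0.14) and with glmTreat. ECT2, the exchange factor that starts the cleavage furrow, had 50.3 and 58.0 CPM in ZIP, 59.0 and 58.8 CPM in SCR and 42.3 CPM in untransduced cells. Its fall of 0.13 ± 0.05 log2 units in ZIP against SCR (adjusted p = 0.033) rested on ZIP 1 and was lost without that library, without SCR 1 and under DESeq2. ANLN, an actin-binding protein of the contractile ring, fell by 0.17 ± 0.03 log2 units.

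Of the chromosome structure genes, 6 of 7 fell and none rose in ZIP against SCR, and 7 of 7 rose in both vector groups against untransduced cells. MKI67 (chr10:128096659-128126385, minus strand) encodes Ki-67, the surfactant-like coat of mitotic chromosomes used as a proliferation marker. It had 564 and 572 CPM in ZIP, 659 and 679 CPM in SCR and 234 CPM in untransduced cells. The untransduced library stood far below both vector groups. MKI67 rose by 1.52 ± 0.03 log2 units in SCR (adjusted p = 4.5e-21), the largest rise of the 51 genes, and by 1.28 ± 0.03 in ZIP (adjusted p = 2.5e-19) against untransduced cells, and fell by 0.24 ± 0.02 in ZIP against SCR (adjusted p = 2.3e-08). TOP2A (chr17:40388516-40417950, minus strand), the topoisomerase that untangles sister chromatids, had 658 and 665 CPM in ZIP, 785 and 792 CPM in SCR and 446 CPM in untransduced cells. It fell by 0.25 ± 0.02 log2 units in ZIP against SCR (adjusted p = 1.9e-09) and rose by 0.82 ± 0.03 in SCR against untransduced cells (adjusted p = 1.8e-17).

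The condensin genes, whose product coils chromosomes, were less alike. NCAPG, a condensin I subunit, had 77.8 and 79.4 CPM in ZIP, 108 and 103 CPM in SCR and 64.2 CPM in untransduced cells, and fell by 0.43 ± 0.03 log2 units in ZIP against SCR (adjusted p = 6.4e-10). SMC4, the ATPase shared by both condensins, had 280 and 298 CPM in ZIP, 303 and 316 CPM in SCR and 150 CPM in untransduced cells. It rose by 1.04 ± 0.04 log2 units in SCR against untransduced cells (adjusted p = 4.7e-16), and its fall of 0.10 ± 0.03 in ZIP against SCR (adjusted p = 0.0079) was lost without ZIP 1 and without SCR 2. Its ATPase partner SMC2 had a log2 fold change of 0.03 ± 0.03 in ZIP against SCR (adjusted p = 0.39). The condensin I subunits NCAPH and NCAPD2 fell by 0.24 ± 0.03 log2 units and 0.17 ± 0.03.

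Across the promoters of the set, both elements were common. RefSeq promoter windows were found for 44 of the 51 genes, and not for AURKA, BIRC5, BUB3, FOXM1, TPX2, TTK and UBE2C. In the 250 bases before the start, 32 of 44 (72.7%) held a CCAAT box on either strand, against 32.7% of 22199 windows of protein-coding genes and 32.0% of all 35116 windows. A pair or more of CCAAT boxes was present in 21 (47.7%), against 10.5% of protein-coding windows. CHR letters were in 23 (52.3%), against 12.1%, and both elements were in 19 (43.2%), against 4.47%. With the 50 bases after the start included, CHR letters were in 33 of 44 (75%), against 13.7%. CCAAT boxes clustered 51 to 75 bases before the start, where 23 of 44 windows had one, and CHR letters lay nearer the start, in 9 windows in the last 25 bases before it and 10 in the first 25 after. CDC25B, CDC25C, CENPE, CKAP2 and KIF2C held neither, and NDC80, NUF2 and SMC2 held CHR letters only across or after the start. Each gene was searched in a lone window, so motifs near any other start of these genes would be missed. Genes were split by CHR letters before the start only. The 23 genes with CHR letters there had median log2 fold changes of -0.17 in ZIP against SCR and 0.53 in SCR against untransduced cells. The 21 without them there had -0.41 and 0.80. These 21 include genes with CHR letters across or after the start, such as NDC80, NUF2, KIFC1 and KIF14. The medians therefore do not compare promoters with and without a CHR, and a link between CHR letters and size of change was not tested.

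**Figure D3:**
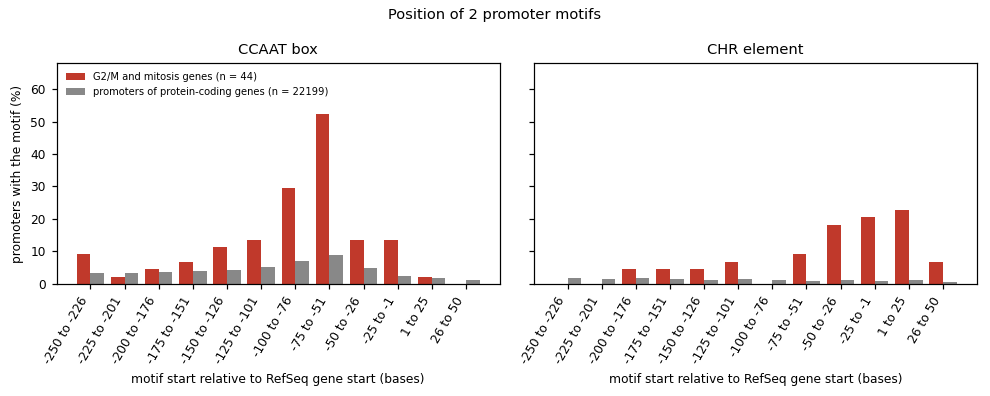
Share of promoters whose CCAAT box (left) or CHR letters (right) start in each 25-base bin around the RefSeq gene start, in 44 promoters of G2/M and mitosis genes (red) and 22199 promoters of protein-coding genes (grey). CCAAT boxes of the mitosis genes peak 51 to 75 bases before the start at 52.3%, and CHR letters peak at 22.7% in the 25 bases after it.

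The microRNA targeted by the ZIP vector, miR-378a-3p (chr5:149732867-149732888, plus strand, GRCh38.p14, RefSeq), is shown with its seed, bases 2 to 8, in capitals, since a direct target would carry the complement of these bases.
hsa-miR-378a-3p: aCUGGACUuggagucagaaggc
The seed match AGTCCAG was found in the longest annotated 3′ UTR of 2 of the 51 genes (3.92%), BUB3 and NCAPG, against 13.0% of 12096 tested genes with a 3′ UTR. UTR length differed, with a median of 794 bases in the 49 mitosis genes without a match and 1171 bases in all genes without a match. BUB3 passed in neither direction and NCAPG fell in ZIP against SCR, and the 49 genes without a match had a median log2 fold change of -0.21.

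Fold changes varied with the exon length of the gene. In ZIP against untransduced cells, Spearman's rho between exon length and log2 fold change was 0.68 across the 51 mitosis genes and 0.32 across 12550 protein-coding genes. It was 0.36 and 0.20 in SCR against untransduced cells, and 0.36 and 0.07 (12135 genes) in ZIP against SCR. These describe genes measured in the same libraries, which are not independent of each other. By length class, in ZIP against untransduced cells, the 18 genes of at least 5 kb had a median log2 fold change of 0.56 (15 rose, 1 fell), the 22 genes of 3 to 5 kb 0.31 (17 rose, 2 fell) and the 11 genes under 3 kb -0.08 (4 rose, 5 fell). Protein-coding genes in the same length classes had medians of 0.15, -0.07 and -0.22. MKI67, CENPF and ASPM, the longest at 12.8, 11.7 and 10.9 kb, were among the largest rises, and UBE2C, the shortest at 1.29 kb, was the largest fall. With a length-dependent offset for each library, chosen after the data were seen, 40 of the 51 genes rose and 5 fell in ZIP against untransduced cells, 42 rose and 3 fell in SCR against untransduced, and 5 rose and 38 fell in ZIP against SCR. The offset did not remove the length trend within the set. In ZIP against untransduced cells rho was still 0.49 across the 51 genes, against 0.03 across protein-coding genes. It was 0.20 and 0.01 in SCR against untransduced cells, and 0.26 and 0.01 in ZIP against SCR. With the offset, PTTG1 lay above untransduced cells in ZIP by 0.11 (adjusted p = 0.032), where it was -0.08 without the offset.

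**Figure D4:**
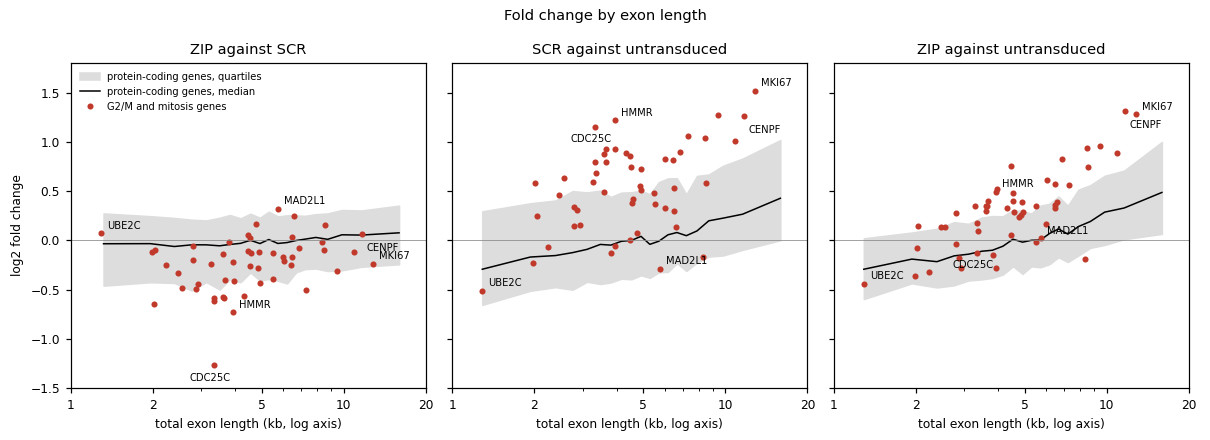
Log2 fold change against total exon length (kb, log axis) in the 3 comparisons, with each G2/M and mitosis gene as a red point, and the median (line) and quartiles (grey band) of protein-coding genes in 20 length bins. In ZIP against untransduced cells both the points and the line climb with length, while in ZIP against SCR the line is nearly flat and most points lie below it.

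Markers of other cell types and states moved between the same groups. The 7 promyelocyte markers summed to 23100 and 22400 CPM in ZIP, 12100 and 12100 CPM in SCR and 24800 CPM in untransduced cells, most of it MPO. Of the 7, 5 were higher and 1 lower in ZIP than in SCR, and 1 rose and 6 fell in SCR against untransduced cells. The 7 monocyte and macrophage markers summed to 1410 and 1410 CPM in ZIP, 1260 and 1270 CPM in SCR and 330 CPM in untransduced cells, nearly all of it LYZ. Of these, 5 fell and 1 rose in ZIP against SCR and 7 of 7 rose in SCR against untransduced cells. CD14 had 3.50 and 4.18 CPM in ZIP, 54.7 and 53.6 CPM in SCR and 2.09 CPM in untransduced cells. The 6 mature neutrophil markers summed to 35.9 and 35.2 CPM in ZIP, 59.0 and 57.9 CPM in SCR and 42.2 CPM in untransduced cells. Most of the SCR sum was ITGAM, at 10.3 and 8.07 CPM in ZIP, 39.0 and 37.5 CPM in SCR and 8.39 CPM in untransduced cells. ITGAM was the 1 marker of this list that rose in SCR against untransduced cells, where 3 of the 5 tested fell (median -0.34). In ZIP against SCR, 1 of the 4 tested rose and 2 fell. T and NK cell markers summed to 12.3 to 22.5 CPM, nearly all NKG7, B cell markers to 1.44 to 4.38 CPM with MS4A1 at 0 in every library, and epithelial and fibroblast markers to 0.29 to 0.784 CPM with KRT5 and KRT19 at 0. The part of these differences in the changes of the mitosis genes was not tested.

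Other genes of the same pathways did not all move with the set. Their counts stand beside 32.2% of all genes higher and 33.2% lower in ZIP against SCR. The shares were 32.7% and 32.2% in SCR, and 28.5% and 29.7% in ZIP, against untransduced cells. Of 26 further kinetochore subunits, 15 fell and 3 rose in ZIP against SCR (median -0.20), 14 rose and 7 fell in SCR against untransduced cells (0.17), and 6 rose and 13 fell in ZIP against untransduced cells (-0.18). SKA2, which helps kinetochores hold microtubule ends, had 45.2 and 48.1 CPM in ZIP, 76.3 and 74.3 CPM in SCR and 52.8 CPM in untransduced cells, a fall of 0.69 ± 0.04 log2 units in ZIP against SCR (adjusted p = 5.9e-12). NSL1 and CENPU fell by 0.68 ± 0.04 log2 units and 0.42 ± 0.03. Among 11 cohesin, shugoshin and separase genes, 5 rose and 6 fell in ZIP against SCR, and 11 of 11 rose in SCR against untransduced cells. ESPL1, the separase that securin inhibits, had 58.6 and 60.9 CPM in ZIP, 93.3 and 89.6 CPM in SCR and 52.4 CPM in untransduced cells. It fell by 0.62 ± 0.04 log2 units in ZIP against SCR (adjusted p = 5.9e-12), beside the fall of 0.65 ± 0.03 of securin. The cohesin subunits SMC1A and STAG1 rose by 0.21 ± 0.03 log2 units and 0.33 ± 0.05. Of the 3 condensin II subunits, NCAPG2 fell by 0.23 ± 0.03 in ZIP against SCR, and NCAPD3 and NCAPH2 had log2 fold changes of 0.04 ± 0.03 (adjusted p = 0.21) and 0.03 ± 0.04 (adjusted p = 0.51).

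Outside the set, 2 lists of genes that act on mitotic entry and exit were read against the share of all tested genes that rose (32.2%) or fell (33.2%) in ZIP against SCR. Of 15 APC/C core subunits and CDH1, 8 rose and 3 fell in ZIP against SCR (median 0.20), and 4 rose and 9 fell in SCR against untransduced cells (-0.38). ANAPC5 had 370 and 364 CPM in ZIP, 264 and 265 CPM in SCR and 356 CPM in untransduced cells, a rise of 0.47 ± 0.03 log2 units in ZIP against SCR (adjusted p = 2.6e-12). ANAPC1 and ANAPC2 rose by 0.46 ± 0.03 log2 units and 0.42 ± 0.04. Among 6 G2 checkpoint kinases and the phosphatase CDC25A, 6 of 7 rose and none fell in ZIP against SCR, and 1 rose and 5 fell in SCR against untransduced cells. ATR, the kinase that signals stalled replication forks, had 113 and 116 CPM in ZIP, 67.5 and 66.6 CPM in SCR and 70.1 CPM in untransduced cells. It rose by 0.77 ± 0.03 log2 units in ZIP against SCR (adjusted p = 2e-14). WEE1, which places the inhibitory phosphate on CDK1 that CDC25 phosphatases remove, had 101 and 102 CPM in ZIP, 91.0 and 92.5 CPM in SCR and 161 CPM in untransduced cells. It rose by 0.15 ± 0.03 log2 units in ZIP against SCR (adjusted p = 0.0002) and fell by 0.82 in SCR against untransduced cells (adjusted p = 2.4e-15). CHEK2 rose by 0.23 ± 0.05 log2 units in ZIP against SCR.

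Of the 9 DREAM and MuvB subunits tested (of 10 listed, since LIN37 was not found by symbol), 4 rose and 2 fell in ZIP against SCR (median 0.03). The shares over all genes there were 32.2% and 33.2%. TFDP1, the partner of E2F factors, had 463 and 468 CPM in ZIP, 324 and 321 CPM in SCR and 443 CPM in untransduced cells, a rise of 0.53 ± 0.02 log2 units (adjusted p = 1.8e-13). The repressors RBL2 and E2F4 rose by 0.32 ± 0.03 log2 units and 0.35 ± 0.04. RBL1 did not, with a log2 fold change of -0.01 ± 0.03 (adjusted p = 0.79), and LIN54 and RBBP4 also passed in neither direction. MYBL2, which acts in activation, also rose, by 0.19 ± 0.03 (adjusted p = 3.8e-06). The 2 that fell were LIN9, by 0.39 ± 0.07, and LIN52, by 0.48 ± 0.11. The 20 G1/S and replication origin genes showed little net difference between the vector groups, with sums of 4750 and 4720 CPM in ZIP, 4760 and 4700 CPM in SCR and 5210 CPM in untransduced cells. In ZIP against SCR 5 rose and 8 fell (median -0.01), and in SCR against untransduced cells 5 rose and 11 fell (-0.19). RRM2, the regulated subunit of ribonucleotide reductase, had 322 and 318 CPM in ZIP, 470 and 462 CPM in SCR and 278 CPM in untransduced cells, and fell by 0.54 ± 0.03 log2 units in ZIP against SCR (adjusted p = 1.7e-13). CDC6, which loads the replicative helicase, fell by 0.39 ± 0.03 log2 units, and MCM4, a subunit of that helicase, rose by 0.24 ± 0.02.

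**Figure D5:**
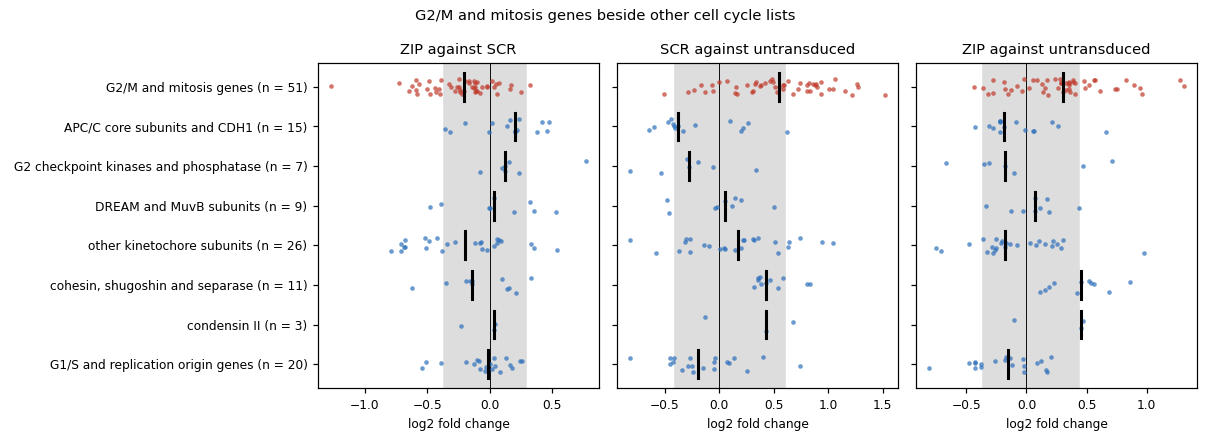
Log2 fold change of each gene (points) and the median (black bar) for the G2/M and mitosis genes (red) and 7 other cell cycle lists (blue) in the 3 comparisons; the grey band spans the quartiles of all genes tested. The medians of the mitosis genes are -0.21, 0.55 and 0.30, and those of the G1/S and replication origin genes are -0.01, -0.19 and -0.15.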

How the data were processed

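Per the labels, total RNA of 5 HL60 samples was isolated with mirVana, made into libraries with the TruSeq Small RNA kit and read on an Illumina HiSeq. The deposited table holds raw counts per Ensembl gene, not normalized by the authors, which was read from the values: whole numbers with a different total in each library. Per the submitters' processing notes, Bowtie2 and featureCounts were used. The design text names CASAVA 1.8.2, TopHat 2, Cufflinks and HTSeq. No source used here says which made the counts, or gives the build, annotation or use of strand. Counts of 12 of the 51 genes, which overlap the span of another protein-coding gene, are therefore uncertain to differing degrees. Totals were 30925067 and 24406580 (ZIP), 24539092 and 24978022 (SCR) and 25064771 (untransduced), and 3 counts correspond to 0.098 to 0.125 CPM.

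IDs were matched to GENCODE 29 (GRCh38): 44305 had a symbol and 6750 did not. Genes were filtered with filterByExpr (minimum count 10, total 15), scaled by TMM and tested with the edgeR 4.0.16 quasi-likelihood test in R 4.3.3, and p-values were adjusted by Benjamini-Hochberg (threshold 0.05). The ZIP and SCR comparison used 4 libraries. The other comparisons used all 5, with the lone untransduced library assumed to vary like the rest. Each had 2 residual degrees of freedom. The fit was checked on simulated data. Alternatives were library totals, DESeq2 1.42.0, no filter, glmTreat against a fold change of 1.2, and each ZIP or SCR library left out. Further ones were all 5 libraries and a replicate block, both for ZIP against SCR, and, chosen after seeing the data, an offset for exon length. Motif counts, medians and rho are descriptions without a test. The replicate numbers do not pair libraries: deviations of same-numbered ZIP and SCR libraries correlated at 0.0169. The genes, lists and rules were chosen with earlier results of these data known. Of each role the text gives in full the members with the largest called changes, and of each other list up to 3 members of smallest p. MYBL2, LIN9, LIN52, RBL1, LIN54 and RBBP4 were added to these.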

Additional observations from a re-analysis of the deposited data

How the results depend on the processing

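Directions and calls of the set were mostly kept: of the values of named genes under other settings, 1004 kept direction and side of the threshold, 74 lost a call, 12 gained one and 12 changed sign. In ZIP against SCR, library totals gave a median of -0.27 (-0.21 with TMM), with the median of all genes at -0.06, and glmTreat against a fold change of 1.2 called 1 gene of the set higher and 17 lower, with 2387 and 3134 of all genes against 4712 and 4859. In SCR against untransduced cells, library totals moved the median of all genes to 0.13 and gave 2 of the set lower and a median of 0.66 (0.55 with TMM). There DESeq2 called 3 lower, glmTreat 1 and the exon-length offset 3. In ZIP against untransduced cells, library totals gave a median of 0.35, the offset 5 lower and a median of 0.33, and glmTreat 22 higher and 1 lower. Leaving out 1 library at a time gave 4 to 6 higher and 33 to 37 lower in ZIP against SCR, 41 to 42 higher and 3 to 5 lower with medians of 0.55 to 0.57 in SCR against untransduced, and 35 to 36 higher and 8 lower in ZIP against untransduced cells. DESeq2 called 4 of the set higher and 32 lower in ZIP against SCR, with 3410 higher and 3643 lower of all genes. It called 39 of the set higher and 3 lower in SCR, and 32 higher and 7 lower in ZIP, against untransduced cells. The cause of these shifts was not tested.

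Signs changed for values near 0. In ZIP against SCR, CENPF was -0.0024 with library totals and -0.0048 with the offset, BIRC5 was 0.01 without ZIP 2 and 0.02 without SCR 1, and BUB3 was -0.04 without SCR 2 and 0.01 without SCR 1. In SCR against untransduced cells, CDK1 was 0.05 and AURKB 0.04 with library totals, and AURKB was 0.06 with the offset. In ZIP against untransduced cells, PRC1 was 0.03 with library totals and -0.03 without ZIP 2 and 0.0022 without ZIP 1, and with the offset MAD2L1 was -0.00088 and PTTG1 0.11. With the replicate number as a block, 5 genes of the set were higher and 38 lower in ZIP against SCR; the added call was CENPF (0.06, adjusted p = 0.042). The small number of libraries, 2 against 2 and a lone untransduced library, limits every comparison. Only ZIP and SCR libraries were left out in turn, so the untransduced library behind both comparisons with it was not checked this way.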
